A study of Mus musculus with 12 samples.

Results

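The windows described here are 350 promoter windows of the mouse genome that carried little 5-hydroxymethylcytosine (5hmC) in heart and liver. They were chosen by their values: the promoter FPKM (fragments per kilobase of window, scaled to the size of the library) had to lie below 0.25 in each of 5 tissue libraries, and the gene body had to be at least 5000 bp long. The 5 libraries were heart and liver of embryonic day 14 (1 library each), the first heart library of 8-week-old adults and both adult liver libraries. Of 12169 windows whose gene bodies reached that length, 2.88% were chosen, out of 13558 windows in the tables. Low values in those 5 libraries are therefore the selection and no result. What the selection did not use were the promoter values in embryonic stem cells (ESC) and in neonatal tissues, the second adult heart library, the gene bodies in all libraries, and the sequence and gene class of each window.

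5hmC is made from 5-methylcytosine by the TET dioxygenases and is both an intermediate of DNA demethylation and a mark that persists in chromatin. In differentiated tissues it is found mostly along the bodies and around the promoters of genes in use and at enhancers, while CpG-rich promoters free of methylation carry little of it at the start site itself. In ESC it is also found at the CpG-rich promoters of developmental genes held silent by Polycomb complexes.

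The pull-down (hMe-Seal) adds an azide-bearing glucose to 5hmC with a phage glucosyltransferase, attaches biotin to it and captures the fragments on streptavidin, so a value measures enrichment and not the percentage of modified cytosines. ESC were the EB5 line, of 129/Ola background, grown with LIF (2 libraries). Whole heart and whole liver came from C57BL6/j mice at neonatal day 1 to 2 (P1, 2 libraries each), embryonic day 14 (E14, 1 each) and 8 weeks (W8, 2 each). No treatment and no altered genotype is given for any group. ESC and P1 libraries were read as paired ends of 75 bp and the others as single reads of 50 bp, so read format cannot be told apart from age, nor mouse strain from the contrast of ESC with tissue. Nothing says whether replicates came from separate animals or cultures, and p-values measure only the spread between these libraries. In bulk DNA, fewer cells with the mark and less mark per cell cannot be told apart.

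Depth differed widely. The smallest step between FPKM values gave about 953679 to 3963312 fragments for the 6 paired-end libraries and 7255639 to 15527562 reads for the 5 libraries of the rule. The second W8 heart library held 326119, so that 1 read in a window was worth 0.767 FPKM there. The threshold of 0.25 FPKM stood for 7.26 to 15.5 reads in the rule's libraries and for 0.954 to 3.96 in ESC and P1, where a single window is therefore known only to within a few reads. The E14 liver library had the narrowest range of gene body values, with 0.388 to 0.686 FPKM between the quartiles of the genes not chosen. By gene body level 8 of 9 heart markers were higher in heart than in liver at E14, all 9 at P1 and 7 at W8. The other 1 at E14 and 2 at W8 were lower in every heart library than in every liver library. All 7 liver markers measured were lower in heart at E14 and P1, and 6 of 7 at W8. The summed level of the 4 pluripotency markers measured, of 7 listed, did not set ESC apart (3.07 to 3.11 FPKM, against 3.52 to 5.00 in P1 heart).

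The promoter stretches of 6 chosen windows are printed here as examples. Each table window spans 4000 bp. That it reaches about 2000 bp to either side of the start site was inferred from gene and body lengths. Of 2924 genes with a single transcript, 1381 (47.2%) met this to within 10 bp. The sequences here are the 250 bases before the start in RefSeq's GRCm38.p6 promoter table. The values refer to mm9, whose tables name no chromosome. The first pair had promoter 5hmC in ESC and little in tissues, the second pair lay in front of gene bodies rich in 5hmC, and the third belongs to genes of sperm and of chemical sensing with little 5hmC anywhere. All run 5′ to 3′ on the strand of the gene, with each CpG in capitals.
Slc6a5: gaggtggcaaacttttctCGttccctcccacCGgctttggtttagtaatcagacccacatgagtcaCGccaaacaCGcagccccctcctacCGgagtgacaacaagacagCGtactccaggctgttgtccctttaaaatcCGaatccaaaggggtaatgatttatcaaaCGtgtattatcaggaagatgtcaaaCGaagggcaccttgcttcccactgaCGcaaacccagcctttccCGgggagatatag
Pax1: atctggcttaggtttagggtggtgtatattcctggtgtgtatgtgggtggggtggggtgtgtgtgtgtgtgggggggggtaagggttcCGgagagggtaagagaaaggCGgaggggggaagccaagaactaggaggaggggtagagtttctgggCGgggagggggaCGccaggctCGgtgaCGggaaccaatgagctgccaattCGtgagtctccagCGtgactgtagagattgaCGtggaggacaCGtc
Nfil3: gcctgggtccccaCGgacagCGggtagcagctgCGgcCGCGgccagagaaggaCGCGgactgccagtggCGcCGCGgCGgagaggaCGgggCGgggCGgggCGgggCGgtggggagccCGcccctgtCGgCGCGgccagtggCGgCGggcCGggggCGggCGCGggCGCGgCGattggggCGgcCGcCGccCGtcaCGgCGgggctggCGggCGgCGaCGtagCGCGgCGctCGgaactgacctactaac
Tnrc18: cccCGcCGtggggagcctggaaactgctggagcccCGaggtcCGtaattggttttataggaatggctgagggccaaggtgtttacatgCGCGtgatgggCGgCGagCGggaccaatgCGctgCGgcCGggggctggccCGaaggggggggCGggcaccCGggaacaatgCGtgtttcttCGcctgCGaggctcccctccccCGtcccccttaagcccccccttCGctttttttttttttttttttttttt
Cylc1: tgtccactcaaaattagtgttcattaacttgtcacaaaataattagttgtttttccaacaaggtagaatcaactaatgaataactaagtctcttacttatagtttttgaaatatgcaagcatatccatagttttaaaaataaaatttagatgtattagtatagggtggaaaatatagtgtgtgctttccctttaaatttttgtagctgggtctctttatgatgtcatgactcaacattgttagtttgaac
Vmn2r1: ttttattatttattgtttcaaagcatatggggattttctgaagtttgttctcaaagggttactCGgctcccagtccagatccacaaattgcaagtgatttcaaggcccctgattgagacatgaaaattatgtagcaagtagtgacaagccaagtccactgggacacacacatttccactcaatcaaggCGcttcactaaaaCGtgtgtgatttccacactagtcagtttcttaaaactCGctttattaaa
Slc6a5, the neuronal glycine transporter, lies on the plus strand at chr7:49910049-49910298 and has 11 CpG in these 250 bases (RefSeq lists 2 starts for it, of which the first is shown). Pax1, a paired-box factor of the developing vertebral column, is at chr2:147364744-147364993 on the plus strand and has 10. Nfil3, a bZIP repressor, is at chr13:52981040-52981289 on the minus strand with 43 CpG, and Tnrc18 is at chr5:142817663-142817912 on the minus strand with 20. Cylc1, a protein of the sperm head, is at chrX:111110168-111110417 on the plus strand and has none, and Vmn2r1, a vomeronasal receptor, is at chr3:64081392-64081641 on the plus strand and has 4. The 6 were picked after their values were known, to show the range.

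Of the 350 members, 266 (76.0%) matched an entry of the promoter table, fewer than the 80% set as the minimum for a check of sequence over the whole set. That check is therefore void, and the following values describe the matched members only. The dinucleotide CG, which reads the same on both strands, occurred a median of 9 times in the 300 bases around the start of members and 20 times in the 9406 matched promoters of genes not chosen. It was absent from 7.89% of matched members and from 0.851% of the others. An observed-to-expected CpG ratio of at least 0.6 in the 300 bases, which alone defines CpG-rich here, was found in 37.2% of matched members. Of the others 65.5% had it. The ratio is not the number of CpG: Slc6a5 passed with 12 CpG and a ratio of 0.659. Of the matched members 99 were CpG-rich. In the other direction, 1.58% of the matched CpG-rich windows and 4.9% of the matched CpG-poor ones were members. Members without an entry may differ from these.

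Many of the matched members were X-linked: 61 of 266 (22.9%), against 2.85% of the matched promoters not chosen. Of 329 X-linked windows 18.5% were members, and of 9339 autosomal ones 2.17%. FPKM was not corrected for the number of copies of a chromosome, and the part of copy number was not tested. X-linked windows that were not chosen were low as well. Their mean promoter FPKM was 0.331 and 0.317 in the ESC libraries and 0.273 in E14 heart, against 0.827, 0.770 and 0.650 for autosomal windows not chosen. The X-linked members included Dmd (dystrophin), Htr2c (a serotonin receptor), L1cam (a neural adhesion molecule), Smc1a (a cohesin subunit) and Hcfc1 (a transcriptional co-regulator), so they were not of one class. Zfy2 and Usp9y lie on chromosome Y.

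In libraries that the rule had not used, members were low in P1 tissues and nearer to the other windows in ESC. The rule took the same tissues at ages before and after P1, so the low P1 level is close to what the choice fixes. Mean promoter FPKM of the 350 members was 0.490 and 0.443 in the 2 ESC libraries; P1 heart libraries had 0.186 and 0.148, those of P1 liver 0.186 and 0.171. The windows of the 11819 genes not chosen had means of 0.828 and 0.772 in ESC, with 0.840 and 0.766 for P1 heart and 1.10 and 1.01 for P1 liver. Members thus stood at 0.592 and 0.574 of the others' mean in ESC but at 0.170 to 0.222 in the 4 P1 libraries. In the second W8 heart library the mean was 0.164 FPKM, and 290 of 350 members had no read, a count that its depth limits. For the rule's own libraries, as a description, the means were 0.103 (E14 heart), 0.149 (E14 liver), 0.119 (W8 heart), 0.0926 and 0.0958 (W8 liver).

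**Figure D1:**
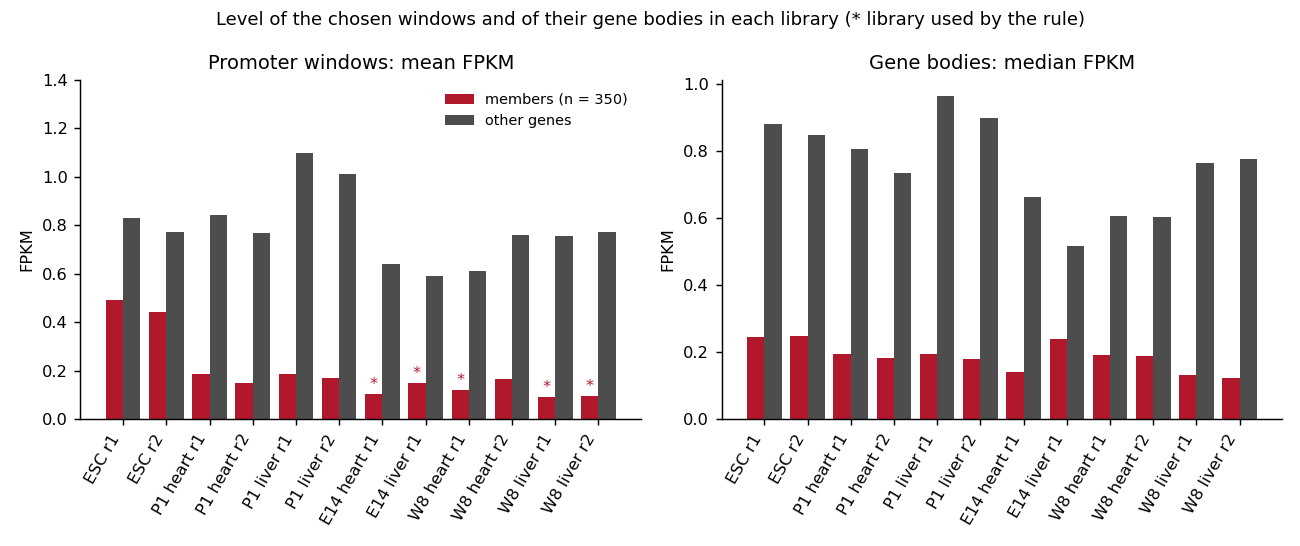
Mean promoter FPKM (left) and median gene body FPKM (right) of the 350 chosen windows and of the other genes, 1 pair of bars per library (r1 and r2 are replicates 1 and 2); asterisks mark libraries used by the rule. Members are at 0.443 to 0.490 in ESC and at or under 0.186 in every other library on the left, and their gene bodies are low in all 12 on the right.

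More member windows reached the level of the other windows in ESC than in P1. The rule held the same tissues low at other ages, so few high windows in P1 are close to what the choice fixes. Member windows also held a median of only 0 to 2 fragments in the P1 libraries. In ESC 87 members (24.9%) had a mean above 0.658 FPKM, the median of the genes not chosen, whereas in P1 only 2 (0.571%) had a mean above the corresponding 0.861. No read at all was found in P1 for 18 members (5.14%), against 0.0508% of the other windows. Among matched members, CpG-rich ones averaged 0.545 and 0.477 FPKM in the ESC libraries, and CpG-poor ones 0.410 and 0.381. Windows not chosen had the opposite order, with 0.710 and 0.663 for CpG-rich and 1.01 and 0.936 for CpG-poor ones. X-linked members stayed low in ESC too, at 0.224 and 0.215, where autosomal members were at 0.534 and 0.480.

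The share of windows chosen differed between gene classes. Olfactory, vomeronasal and taste receptor genes gave 5 of 11 windows, and Toll-like and Nod-like receptor genes 6 of 21. Cadherins, protocadherins and synaptic adhesion genes gave 10 of 46, developmental transcription factors 18 of 93, pregnancy, milk and gland genes 5 of 28, erythroid genes 2 of 14, and neurotransmitter and orphan G-protein receptors 18 of 128. Of defensins and other antimicrobial peptides it was 1 of only 3. These shares run from 14.1% to 45.5%, beside 2.88% over all windows. Ribosomal, proteasomal and respiratory chain genes had 1 of 125 (0.8%). None of 29 cardiac, 35 hepatocyte, 15 lymphocyte or 9 pluripotency genes was a member. In lists this short a share of 2.88% gives few members or none, so the zeros do not set these lists apart. Zinc finger genes (8 of 252), solute carriers and ABC transporters (8 of 338) and cytochromes P450 with conjugating enzymes (3 of 107) had shares of 3.17%, 2.37% and 2.8%. Cell cycle genes (2 of 96, 2.08%) were also near the overall share. None of the classes held 221 of the members. The shares depend on the threshold that made the selection and carry no test.

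**Figure D2:**
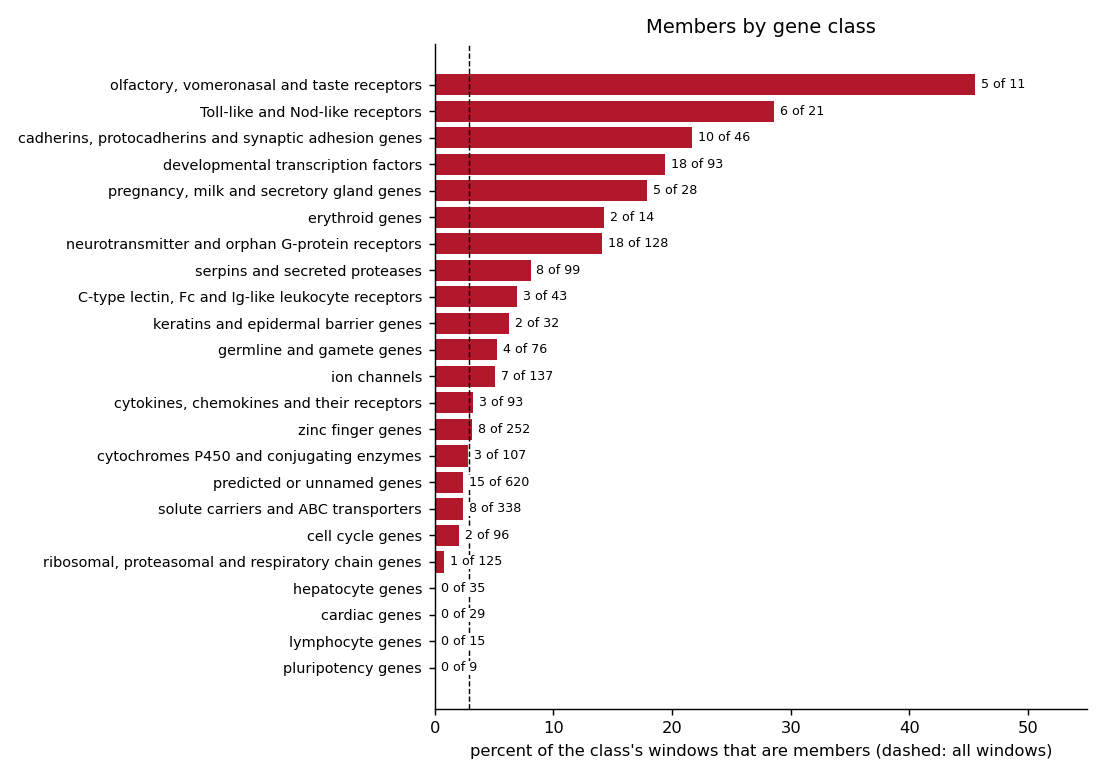
Percentage of the windows of each gene class that were chosen, for classes with 9 or more windows; the dashed line is the 2.88% over all windows and the counts stand beside the bars. Sensory receptor genes lead with 5 of 11, and the 4 short lists of cardiac, hepatocyte, lymphocyte and pluripotency genes (9 to 35 windows) are at 0.

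Sensory receptor genes had little 5hmC in window or body. These 5 genes had a median promoter FPKM of 0.0935 in ESC and 0.0666 in P1, and a median gene body FPKM of 0.0755 over the 11 libraries without the shallow one. Vmn2r1 had promoter values of 0.124 and 0.0631 in ESC, with 0 and 0.231 for P1 heart and 0 and 0.140 for P1 liver. The natural killer cell receptor Klra8 had no promoter read in any of the 6 ESC and P1 libraries. Nod-like receptor genes expressed in oocytes (Nlrp4f, Nlrp5, Nlrp9c, Nlrp14) made up most of their class, which had a median of 0.421 in ESC and 0.112 in P1. In Psg, Klra, Vmn, Nlrp and Serpinb9 families, and for Zfy2 and Usp9y, near-identical copies can share reads, and the treatment of reads with several matches is not given in the sources used here, so their low values are uncertain.

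Neuronal genes chosen included the GABA receptor subunit genes Gabra3, Gabra6 and Gabrg1, the glutamate receptor genes Gria4, Grik1, Grid1, Grin2a and Grm8, the serotonin receptor genes Htr2c and Htr5a, and Oprm1, the mu opioid receptor. The median promoter level of the 18 members of this class was 0.594 FPKM in ESC and 0.129 in P1. Htr5a had 2.11 and 1.58 in ESC, against 0.589 and 0 in P1 heart, with 0.262 and 0.211 for P1 liver. Oprm1 had 0 and 0.126 in ESC and 0.196, 0, 0.524 and 0.351 in P1. Members of one class therefore differed, with Htr5a high in ESC and Oprm1 low in both. Among ion channels (7 of 137) were Kcna1, Scn1a and Kcnj6, and among adhesion genes Nrxn3, Cntnap2 and Pcdh19.

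The developmental transcription factors included Barx2, Hoxa9, Hoxc9, Hoxc13, Isl1, Lhx4, Meis2, Pax1, Pax7, Pitx1, Pou2f1, Six3, Tbx22 and Zic4, with the antisense transcripts Emx2os and Six3os1. The median promoter level of the class was 0.766 FPKM in ESC and 0.0621 in P1. Meis2 and Pou2f1 were below this median in ESC. Meis2 had 0.372 and 0.189 in ESC and 0 to 0.211 in P1, and Pou2f1 had 0.248 and 0.189 in ESC and higher values, 0.492 to 0.786, in P1.

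Promoter 5hmC in P1 tissues was set against ESC to ask which windows carried the mark in ESC but not in neonatal tissue. The samples were not used by the rule, but the rule took the same tissues at ages before and after, so a lower level in P1 is close to what the choice itself fixes. Both ESC libraries were above all 4 P1 libraries in 123 of 350 members (35.1%), against 12.8% of all 12169 windows. They were below all 4 in 9 members (2.57%), against 20.4%. Of the 310 members whose 6 paired-end libraries averaged 0.0723 FPKM or more, limma called 22 lower in P1 and 0 higher at an adjusted p under 0.05; the other 40 were not tested. Over all 13484 windows tested 1.42% were called lower and 3.49% higher. The median log2 difference was -1.29 for the tested members and 0.18 for all windows. Since a member with few reads in P1 could pass the filter only through ESC, neither value is evidence about the members. Of the 22 windows 13 had a P1 mean under that minimum, so the p-values of single windows below describe the chosen windows and support nothing further.

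The count of 22 depended on single libraries, as did the count over all windows. It fell to 0 on leaving out either of the ESC libraries or either of the P1 liver libraries, was 24 without P1 heart replicate 2 and rose to 47 without P1 heart replicate 1. With the libraries centred on their medians it was 36, all lower, and the split over all windows turned from 470 higher and 192 lower to 218 higher and 405 lower. ESC and tissues also differ in mouse strain, which cannot be told apart from this contrast.

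Of the 22 windows, 5 were on the list of developmental transcription factors and 1, Grin2a, on that of neurotransmitter receptors. The following grouping was made after the calls were seen and carries no test. Homeobox and paired-box genes were Pitx1, Pdx1, Pax1, Uncx, Otp, Isl1, Lhx4, Lmx1a and Hoxc9, of which Pdx1, Uncx, Otp and Lmx1a were not on the class list. Slc6a5, Gad2 (an enzyme that makes GABA), Galr1 (a galanin receptor), Grin2a (an NMDA receptor subunit), Cplx1 and Svop (proteins of synaptic vesicle release and of the vesicle membrane), Dpp10, Ptprt and Pcsk1 (a prohormone convertase) are genes of neurons or neuroendocrine cells. Tmem132d, Tnfrsf8 (the lymphocyte receptor CD30), Ubtfl1 and 6330527O06Rik were the rest. Their ESC means ran from 0.499 (Isl1) to 3.16 (Slc6a5) and their P1 means from 0 to 0.225. None matched to chromosome X, and 10 of the 16 with a promoter entry were CpG-rich. Of the other 75 developmental transcription factor windows, those not chosen, 15 were called lower in P1 and 0 higher, and of the 17 tested members of the class 5 were called lower.

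Slc6a5, whose promoter is printed above with 11 CpG, had 2.98 and 3.34 FPKM in ESC; P1 heart gave 0.196 and 0, and P1 liver 0.262 and 0. Its window spans 57163516 to 57167515 in mm9. Both ESC libraries stood far above all 4 P1 libraries, with a log2 difference of -4.45 ± 0.85 (SE, limma adjusted p = 0.026). Pitx1, a homeobox gene of the hindlimb and pituitary, had 2.73 and 2.59 in ESC, with 0.196 and 0.231 for P1 heart and 0 and 0.140 for P1 liver (-3.86 ± 0.71, limma adjusted p = 0.0245). Pdx1, needed to form the pancreas, had 1.98 and 2.71 in ESC and 0 to 0.231 in P1 (-4.29 ± 0.83, limma adjusted p = 0.0264). In all 3 the groups did not overlap. Galr1 had 1.74 and 2.14 in ESC and reads in only 1 P1 library (0.0702, P1 liver replicate 2). Pax1 had 2.23 and 2.02 in ESC and a read in 1 P1 library only, P1 heart replicate 2 (0.231). Gad2 had 1.74 and 1.20 in ESC, no read in P1 heart, and 0.262 and 0.140 in P1 liver.

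**Figure D3:**
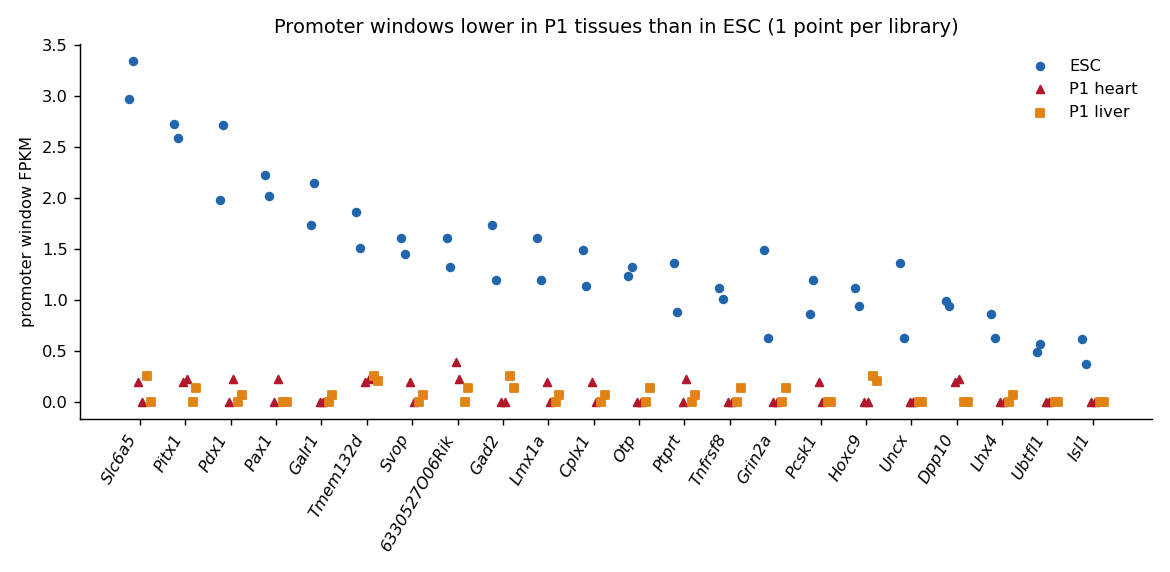
Promoter FPKM of the 22 windows called lower in P1 tissues than in ESC, 1 point per library, ordered by their ESC mean. Both ESC points of each gene lie above its 4 P1 points, from Slc6a5 with an ESC mean of 3.16 to Isl1 with 0.499.

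Other members with promoter 5hmC in ESC also had it in some P1 libraries. Hk2, hexokinase 2 of glycolysis, had 1.12 and 0.505 in ESC, 1.37 and 0.692 at P1 in heart, and 1.57 and 0.702 at P1 in liver, so that its groups overlapped. Mrap2 (an accessory protein of melanocortin receptors) had 0.992 and 1.20 in ESC and 1.18, 0.692, 0.524 and 0.140 in P1. Ptpn5, a brain tyrosine phosphatase, had 1.49 and 1.58 in ESC and 0 to 0.843 in P1, highest in P1 liver replicate 2. Krt2, a keratin of the epidermis, had 2.23 and 1.45 in ESC and 0 to 0.786 in P1. Both ESC values of Ptpn5 and Krt2 were above all P1 values, but neither window was called.

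Between P1 heart and P1 liver no member window was called with all 6 libraries. Limma gave 0 of 310, with 28 at an unadjusted p under 0.05, and 1 of all 13484 windows was called (0.00742%), with 2169 at an unadjusted p under 0.05. The smallest adjusted p of a member was 0.204. The median log2 difference was -0.04 for tested members and -0.43 for all windows. A member window held a median of 0 to 2 fragments in the P1 libraries. Without P1 heart replicate 1, 1 member was called, lower in heart, and of all windows 8 were called higher and 441 lower. Aoah, a lipopolysaccharide-degrading enzyme of phagocytes, reached 1.38 in P1 heart replicate 2 and 1.57 in P1 liver replicate 1, but 0.196 and 0.421 in the other replicates.

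The gene bodies behind the chosen windows, which begin where the windows end, were mostly poor in 5hmC too. Averaged over 11 libraries, without the shallow W8 heart one, the median body was at 0.201 FPKM (quartiles 0.118 and 0.431), against 0.802 for the genes not chosen. Of 350 members 287 (82%) were below 0.538, the lower quartile of the others. The bodies were also long, with a median of 56.2 kb against 28.9 kb. By library the ratio of the members' median body to that of the others was 0.280 and 0.291 in ESC, 0.199 to 0.247 in P1, 0.212 in E14 heart, 0.310 and 0.316 for adult heart, and 0.159 with 0.171 for adult liver. E14 liver stood apart with 0.463.

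**Figure D4:**
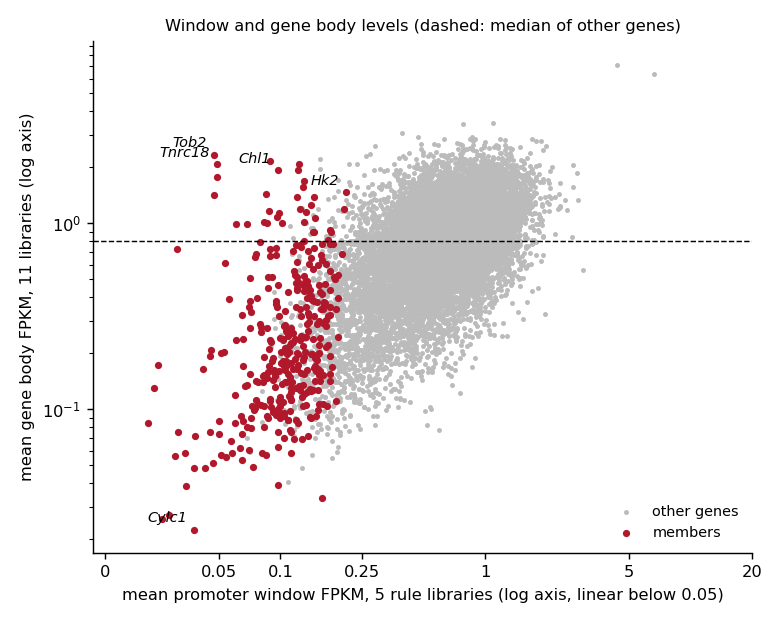
Mean gene body FPKM over 11 libraries against mean promoter FPKM over the 5 libraries of the rule, 1 point per gene (log axes, the horizontal one linear below 0.05). Most members lie under the dashed median of the other genes, 0.802 FPKM, and 34 lie above it.

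The other pattern was a poor window in front of a rich body, seen in 34 members (9.71%) above the others' median, 20 of them above the upper quartile of 1.13 FPKM. Tob2, an antiproliferative gene, led with 2.34 FPKM over the 11 libraries. Its body had 2.09 and 1.88 FPKM for ESC, 2.05 and 2.98 for P1 heart, 2.86 and 3.07 for P1 liver, and 3.06 and 3.31 for W8 liver. Its window had 0 in both P1 heart libraries and 0.262 and 0.281 in those of P1 liver. Trim8 (a ubiquitin ligase), Tnrc18, Zbtb7b (a zinc finger factor of T helper cells) and Nfil3 followed with 2.17, 2.09, 2.09 and 1.94. Nfil3, with 43 CpG printed above, had promoter values of 1.12 and 0.631 in ESC and 0.231 to 0.393 in P1, and a body of 1.59 and 1.51 in ESC and 2.71 and 2.46 in W8 liver. The transcription factors Fosl2, Nfib, Nfia and Klf10, the chromatin subunit Arid2, the hedgehog receptor Ptch1 and the kinase Cdk6 were also among the 34. Of the 19 with a promoter entry 14 were CpG-rich, against 72 of the 226 with poorer bodies below the others' lower quartile.

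Chl1, a neural adhesion gene, was rich in its body in ESC (4.55 and 4.59 FPKM) and in E14 liver (3.33), and between 0.665 and 1.82 elsewhere. The poorest bodies, in values not corrected for chromosome copies, were those of the X- and Y-linked genes Cylc1, Zfy2, Usp9y and Gm7173 and of Serpinb9g. Cylc1, without a CpG in the stretch above, had 0.0434 and 0.0221 FPKM in ESC, 0 in 3 of 4 P1 libraries and 0.0438 at most in W8 liver. Usp9y, a Y-linked deubiquitinase, had 0.0343 and 0.0445 in ESC and 0.00354 to 0.0148 in P1.

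In P1 tissues against ESC more member bodies were lower than higher. Limma called 76 members lower and 30 higher of 315 tested (24.1% and 9.52%), beside 11.4% and 12.7% of all 13482 bodies. The median log2 difference was -0.29 for tested members and -0.02 for all. These bodies adjoin windows chosen to be low in the same tissues at other ages. A body with few reads in P1 could also pass the filter on the mean only through ESC. Neither the shares nor the median is therefore evidence about the members. Of the 18 developmental transcription factors 11 were called lower and 1 higher, and of the 75 other genes of that list 27 were lower and 12 higher. Without ESC replicate 1 or ESC replicate 2 no member was called, and 53 and 61 were called without P1 liver replicate 1 and 2. Over all bodies, too, fewer were called on leaving out these libraries. Of the 22 windows lower in P1, 11 also had a lower body and 0 a higher one. The 22 were picked by the same contrast in the same libraries, so this is no independent support.

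Isl1, a LIM homeobox gene of motor neurons and heart progenitors, had 1.47 and 1.37 FPKM in its ESC body and 0.167 to 0.223 in the 4 P1 libraries (log2 difference -2.50 ± 0.14, limma adjusted p = 0.00624). Six3, of eye and forebrain, had 1.22 and 1.46 in ESC, against 0.276 and 0.162 in P1 heart and 0 in both P1 liver libraries (-3.27 ± 0.21, limma adjusted p = 0.00734). Pax7, of muscle and neural progenitors, had 1.99 and 1.65 in ESC and 0.361 to 0.622 in P1. In each the ESC libraries lay above all P1 libraries. The opposite held for Nfia, a nuclear factor I gene, with 0.344 and 0.348 in ESC and 1.24 to 1.39 in P1 (1.71 ± 0.11, limma adjusted p = 0.00805), and for Cdh2, N-cadherin, with 0.359 and 0.352 in ESC and 0.858 to 1.30 in P1. The windows of Nfia and Cdh2 stayed at or below 0.524 in all of these libraries.

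Between P1 heart and P1 liver 11 member bodies were higher in heart and 8 lower of 315 tested (3.49% and 2.54%), beside 2.37% and 5.99% of all bodies. Centred on library medians the split was 27 higher and 3 lower, and over all bodies it turned from 319 and 808 to 858 and 484. The calls depended on single libraries, among members and over all bodies alike. All or nearly all were lost without either ESC library, without P1 heart replicate 2 or without either P1 liver library. Fewer were called without P1 heart replicate 1 as well. Each of these fits leaves 1 library in a group. Slitrk5, a synaptic adhesion gene, had 1.43 and 1.38 in P1 heart against 0.348 and 0.140 in P1 liver (log2 difference 2.30 ± 0.33, limma adjusted p = 0.0319). Ncam1, the neural cell adhesion molecule, had 0.940 and 0.937 against 0.377 and 0.327. On the liver side Rhag, an erythroid membrane protein, had 0.342 and 0.498 in P1 liver and 0.142 and 0.133 in P1 heart, and its body was at 0.477 in E14 liver. The summed body level of the 3 blood markers measured of 6 was 2.70 to 3.19 FPKM in P1 heart and 3.31 to 3.57 in P1 liver, with none at 0, and their part in the result was not tested.

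At 8 weeks 61 member bodies were higher in heart and 26 lower of 320 tested (19.1% and 8.12%), beside 9.48% and 21.3% of all 13498 bodies. The median log2 difference was 0.26 for tested members and -0.32 for all bodies. The rule held the adjoining windows low in both W8 liver libraries but in only 1 W8 heart library. Member windows stood at 0.122 and 0.124 of the others' mean in W8 liver and at 0.195 in W8 heart replicate 1. Whether the choice itself gives the lean of the bodies was not tested. Without the shallow W8 heart replicate 2 the counts were 78 and 29, beside 12.9% and 26.9%, and with median centring 112 and 11 (over all bodies 2214 and 1353 in place of 1279 and 2871). With only the shallow heart library (without W8 heart replicate 1) the median log2 difference was 0.20 for tested members and -0.26 for all bodies. Without either W8 liver library the calls were lost, among members and over all bodies alike. Beside this contrast, the summed body level of 3 fibroblast markers was 2.16 to 2.22 FPKM in W8 heart and 0.730 to 0.782 in W8 liver, that of 3 endothelial markers 2.31 to 2.86 and 1.67 to 1.68, and that of the 3 blood markers measured of 6 was 0.618 to 1.99 and 2.64 to 3.34, with no marker at 0. Their part in the result was not tested.

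Neurotransmitter and orphan receptor genes leaned to heart at 8 weeks, with 7 of 16 tested members higher and 0 lower, and so did those of the list that were not chosen, with 23 higher and 6 lower of 108. Bcl11a, a zinc finger repressor of fetal globin, had 1.12 and 1.41 FPKM in its W8 heart body and 0.307 and 0.329 in W8 liver (1.76 ± 0.18, limma adjusted p = 0.00419), where P1 heart (1.56 and 1.23) and P1 liver (1.42 and 1.30) overlapped. Hk2 had 1.51 and 1.29 in W8 heart against 0.522 and 0.547 in liver, and its P1 values overlapped as well. On the liver side Cyp3a25, a cytochrome P450 of liver, had 1.10 and 1.07 in W8 liver and 0.0181 and 0.202 in W8 heart. The log2 difference was -2.86 ± 0.51 (limma adjusted p = 0.01). Its window had no more than 0.155 in W8 liver, where the rule held every member under 0.25. The test of whether the tissue difference itself changed from P1 to W8 called 0 of 320 members and 2 of 13498 bodies by limma, with 57 and 2588 at an unadjusted p under 0.05.

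**Figure D5:**
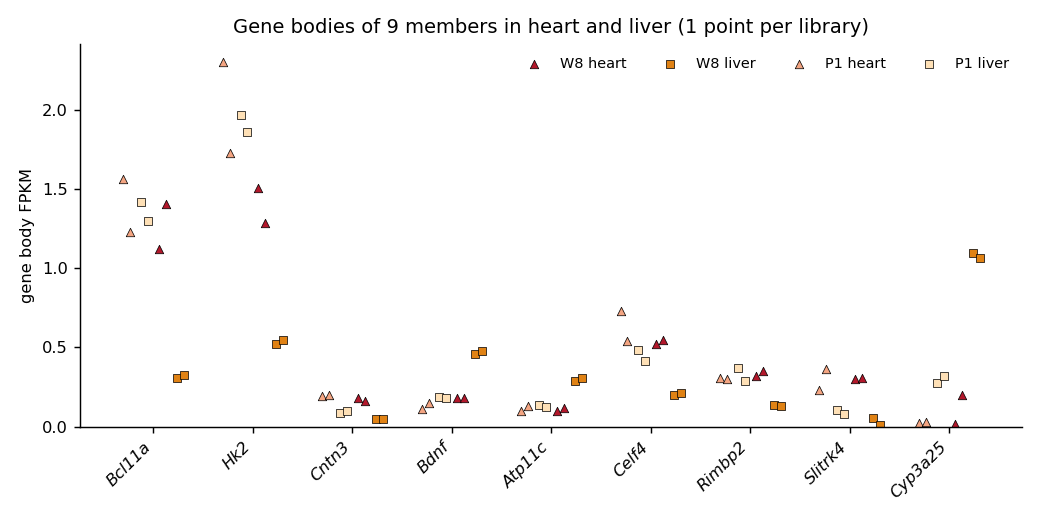
Gene body FPKM in heart (triangles) and liver (squares) at P1 (pale) and W8 (dark), 1 point per library, for 9 of the 10 members with the smallest p between W8 heart and W8 liver. At W8 the 2 heart and 2 liver points of each gene do not overlap, as for Bcl11a with 1.12 and 1.41 against 0.307 and 0.329.

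Windows at the edge of the selection differed little. The 5 members nearest the threshold were Aoah, Nxf3, Shh, Lins and Zfp462, whose highest value in the 5 libraries was 0.246 to 0.248, and the nearest windows outside were Cdk13, Lhx5, Tsx, Kdm6a and Lrba, none above 0.251. Lhx5, a LIM homeobox gene left out by its value in E14 heart, had 0.992 and 0.757 FPKM in ESC, and Shh, the hedgehog ligand, which was included, had 0.496 and 0.820. In 5 pairs, members shared most of a window (among them Glyr1 with Ubn1, Vax2os1 with Vax2, Tshz1 with Zadh2, Ribc1 with Smc1a), which overlap by 2405 to 3868 bp and are not independent. Reads of such pairs cannot be assigned to one gene.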

How the data were processed

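The 12 deposited tables give FPKM for a promoter window and a gene body of each of 13581 genes; the authors mapped 5hmC pull-down reads with Bowtie2 to mm9, per the submitters' processing notes, and the program that counted them is not given in the sources used here. Of these, 23 genes without coordinates were left out. Window and body coordinates are those of the tables, with starts raised by 1. Members, gene classes and tests were chosen with earlier results of these data known. Depth was taken from the smallest step between FPKM values; in the 6 paired-end libraries 100% of the low values were whole multiples of it. Differences were tested with limma 3.58.1 in R 4.3.3 on log2(FPKM + pseudocount), with pseudocounts of 0.0723 (windows) and 0.07457 (bodies), a minimum mean equal to the pseudocount, an intensity trend and Benjamini-Hochberg adjustment over all windows or bodies, calling adjusted p under 0.05. Fold changes of low windows are understated on this scale. ESC and P1 contrasts used the 6 paired-end libraries, the W8 contrast all 12. Replicate numbers are shared across groups, but the deviations of same-numbered libraries did not correlate (r from -0.0205 to 0.0419), so no block was used. The fits were tested on simulated data in which only features with a mean above the median were changed. That test does not cover changes in low windows. CpG and chromosome came from RefSeq's GRCm38.p6 promoter table, matched by accession, then symbol; none of its positions was used with mm9 values. Genes named were the 5 nearest the threshold on each side, the 10 highest windows over ESC and P1, the 5 highest and 5 lowest bodies, up to 10 called members with the smallest p per comparison and up to 3 per class by body level; any other gene was named after its values were seen. Some members that these rules name are not reported here. Alternatives were other pseudocounts, no filter, median centring, a replicate block, other sets of libraries, leaving out each library, and other thresholds for membership.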

Additional observations from a re-analysis of the deposited data

How the results depend on the processing

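The number of members was 179 at a threshold of 0.2 FPKM, 548 at 0.3, 290 with the second W8 heart library also under 0.25 and 398 with no minimum body length. The median ESC promoter level of members was 0.220 FPKM at 0.2 instead of 0.328. Members called in promoter windows of P1 tissues against ESC (22) became 60 with a pseudocount 4 times larger, 0 with one 4 times smaller, 36 with median centring, 11 with all 12 libraries and 61 with 11, without the shallow W8 heart library; leaving out 1 library gave 0 to 47. Between P1 heart and P1 liver, windows gave 0 to 1 called on leaving out 1 library. For bodies between P1 heart and P1 liver (19) the count was 30 with median centring, 3 with 12 libraries and 50 with 11, and 0 to 7 on leaving out 1 library. For bodies of P1 tissues against ESC (106) it was 0 to 98, and for bodies at W8 (87) 0 to 138, on leaving out 1 library. With a replicate block the counts were 0 and 16 for windows (P1 heart against liver, P1 against ESC) and 0, 78 and 69 for bodies (P1 heart against liver, P1 against ESC, W8); the libraries share only a number, and with 2 pairs a group no pairing can be read from the data. The counts over all windows or bodies moved as well, with these settings and on leaving out 1 library. Over all 13484 windows, P1 tissues against ESC gave 470 higher and 192 lower in the main fit. These became 831 and 594 with the larger pseudocount, 3 and 1 with the smaller, and 426 and 160 with the block. In that contrast and in both P1 body contrasts, 12 libraries gave fewer calls and 11 more, among members as over all. The causes of these shifts were not tested. Of 63 gene values called and named, recomputed 751 times, 491 stayed past the threshold, 260 did not and 0 changed direction. Several settings, such as no filter, the replicate block or libraries outside the contrast, cannot alter a log2 difference. The genes were also chosen by their calls. That no direction changed was thus largely fixed beforehand and is no check of the calls. A count model, planned for the windows, was not run, since the deposited values are FPKM. Depth limits windows in all libraries: the median member held 0 reads in the shallow W8 heart library, 0 to 5 in ESC and P1, and 2.99 to 9.92 in the libraries of the rule.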
